A study of Mus musculus with 2 samples.

Results

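Nuclei of the vagus nerve ganglion were selected as glia by the transcripts of *Col28a1*, *Ptprz1*, *Fras1* and *Acsbg1*. The 166 nuclei that met this rule, of 8714 nuclei in all, are described here, and the label of glia did not hold for all of them. A nucleus was taken when the unique molecular identifiers (UMIs, each standing for a captured RNA molecule) of these 4 genes summed to at least 4 and to at least 12 per 10000 of its UMIs. That sum also had to exceed the summed UMIs of *Fabp7*, *Ednrb*, *Kcnj10*, *Lgr5* and *Slc35f1*, and the summed UMIs of the myelin genes *Prx*, *Ncmap*, *Dusp15* and *Cldn19* could not exceed 2. The female library held 103 of these nuclei among 3791, or 2.72% (95% Clopper-Pearson interval 2.22 to 3.29%), and the male library held 63 among 4923, or 1.28% (0.985 to 1.63%). The intervals given here cover counting error only.

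Both libraries came from C57BL/6J mice of the genotype Rosa26-floxed-STOP-Cas9-eGFP on a standard chow diet, in which Cre recombinase switches on Cas9 and eGFP. All mice, bought at 8 to 9 weeks of age, had received AAVrg-Cre, a viral vector that enters axon endings and delivers Cre, in the liver 4 weeks before the ganglia were taken, so no untreated group was present. The female library was made from 14 pooled ganglia of 7 mice and the male library from 16 pooled ganglia of 8 mice, with the Chromium 3' single-nucleus method. Because each sex had 1 library, an effect of sex cannot be told apart from one of the library, and no test of sex was possible. Depth was 17435300 UMIs in the female library (median 2381 per nucleus) and 27529730 UMIs in the male library (median 2658). Of all nuclei, 8 cell barcodes occurred in both libraries, and 0 of them belonged to the 166 selected nuclei.

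Ganglia of the vagus nerve hold satellite glia, which wrap the cell bodies of sensory neurons, and Schwann cells, which follow the axons. Myelinating Schwann cells build the myelin sheath under the control of the transcription factor EGR2, whereas non-myelinating Schwann cells hold small axons in bundles and carry adhesion molecules such as NCAM1. All of these glia arise from the neural crest and depend on the transcription factor SOX10.

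The 4 genes of the rule encode proteins of different kinds. *Col28a1* (chr6:7997808-8192617 in mm10, minus strand) encodes the collagen XXVIII chain, a matrix protein with von Willebrand factor A domains. *Ptprz1* (chr6:22875502-23052916, plus strand) encodes receptor-type protein tyrosine phosphatase zeta, which binds pleiotrophin and contactin 1. *Fras1* (chr5:96373955-96784728, plus strand) encodes a basement membrane protein of the Fraser complex, and *Acsbg1* (chr9:54604877-54661870, minus strand) encodes an acyl-CoA synthetase that activates long-chain fatty acids. The counts of a gene cover its exons and introns.

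The 250 bases upstream of the annotated start of 3 of these genes are shown because the rule uses these genes as a single marker set, and to show how unlike the regions are in base composition. The sequences are from RefSeq on GRCm38.p6, the assembly of mm10, 5' to 3' along the gene. Capitals mark every match, on either strand, to the SOX core ACAAAG, the TATA box TATAAA, the GC box GGGCGG or CCAAT.
Col28a1, chr6:8192618-8192867, minus strand: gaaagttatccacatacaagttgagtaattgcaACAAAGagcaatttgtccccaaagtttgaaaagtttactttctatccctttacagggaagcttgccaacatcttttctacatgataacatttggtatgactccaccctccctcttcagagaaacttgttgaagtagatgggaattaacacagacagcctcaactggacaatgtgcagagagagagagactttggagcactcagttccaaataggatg
Ptprz1, chr6:22875252-22875501, plus strand: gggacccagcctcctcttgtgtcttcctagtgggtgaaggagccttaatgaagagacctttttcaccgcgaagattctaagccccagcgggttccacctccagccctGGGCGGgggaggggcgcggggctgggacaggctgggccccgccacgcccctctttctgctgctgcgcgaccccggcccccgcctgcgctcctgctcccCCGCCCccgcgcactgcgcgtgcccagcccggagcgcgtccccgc
Acsbg1, chr9:54661886-54662135, minus strand: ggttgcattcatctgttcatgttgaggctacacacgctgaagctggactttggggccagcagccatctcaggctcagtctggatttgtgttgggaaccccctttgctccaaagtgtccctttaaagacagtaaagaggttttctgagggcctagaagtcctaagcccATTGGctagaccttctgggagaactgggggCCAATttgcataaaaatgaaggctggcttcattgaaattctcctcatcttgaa
The G and C content was 40.4% upstream of *Col28a1*, 71.6% upstream of *Ptprz1* and 48.4% upstream of *Acsbg1*. The region of *Col28a1* held 1 match to ACAAAG, a motif found in 16.5% of 32851 such regions. The region of *Ptprz1* held 2 matches to GGGCGG, found in 32.7% of the regions, and that of *Acsbg1* held 2 matches to CCAAT, found in 33.8%. None of the 3 regions held TATAAA, which 12.4% of the regions held. A match is a description of the letters and not a shown binding site.

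*Ptprz1* gave the most UMIs of the 4 genes. It had 571 UMIs in the female members, in 97 of 103 nuclei, and 249 in the male members, in 57 of 63, of which 48 came from 1 nucleus. These were 61.1% and 45.2% of the UMIs of the 4 genes. *Col28a1* gave 153 UMIs in 53 female nuclei and 147 in 47 male nuclei. *Fras1* gave 117 and 92 UMIs, and *Acsbg1* 93 and 63. All 4 genes were seen together in 21 female and 18 male nuclei, and *Ptprz1* was the only one of the 4 in 24 female and 6 male nuclei. The summed UMIs of the 4 genes ran from 4 through a median of 8 to 21 in female members, and from 4 through 7 to 57 in male members. These values chose the nuclei and are given as a description.

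Many nuclei lay near the limits of the rule. Of the members, 27 had a sum of exactly 4, and 17 other nuclei with a sum of 3 met the rest of the rule. Between 12 and 14 UMIs per 10000 there were 17 members, and 10 other nuclei lay between 10 and 12. The sum exceeded that of the 5 *Fabp7*, *Ednrb* list genes by 1 UMI in 31 members and was equal to it in 26 nuclei that were not taken. At least 4 UMIs of those 5 genes were present in 38 female and 37 male members, the level at which a nucleus with fewer UMIs of the 4 rule genes was taken as a *Fabp7*, *Ednrb* nucleus.

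The label of glia did not hold for all 166 nuclei. Inspection of single nuclei after the counts had been seen separated 3 sets, and the limits that define them were chosen on these data. They were assigned in order, each among the members not yet in a set. The first, called the *Slc1a2* set, holds members with at least 3 summed UMIs of the astrocyte genes *Slc1a2*, *Slc39a12*, *Ntsr2*, *Fgfr3* and *Aqp4*, and had 19 female nuclei and 1 male nucleus. The second, the *Nrxn3* set, holds other members with at least 20 summed UMIs of *Nrxn3*, *Kirrel3* and *Sorcs3*, and had 18 female and 2 male nuclei. The third, the *Ctnna2* set, holds members in neither of these sets with at least 20 summed UMIs of *Ctnna2* and *Cntnap2*, and had 6 female and 8 male nuclei. The remaining members were 60 female nuclei, 1.58% of the library (1.21 to 2.03%), and 52 male nuclei, 1.06% (0.79 to 1.38%).

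**Figure D1:**
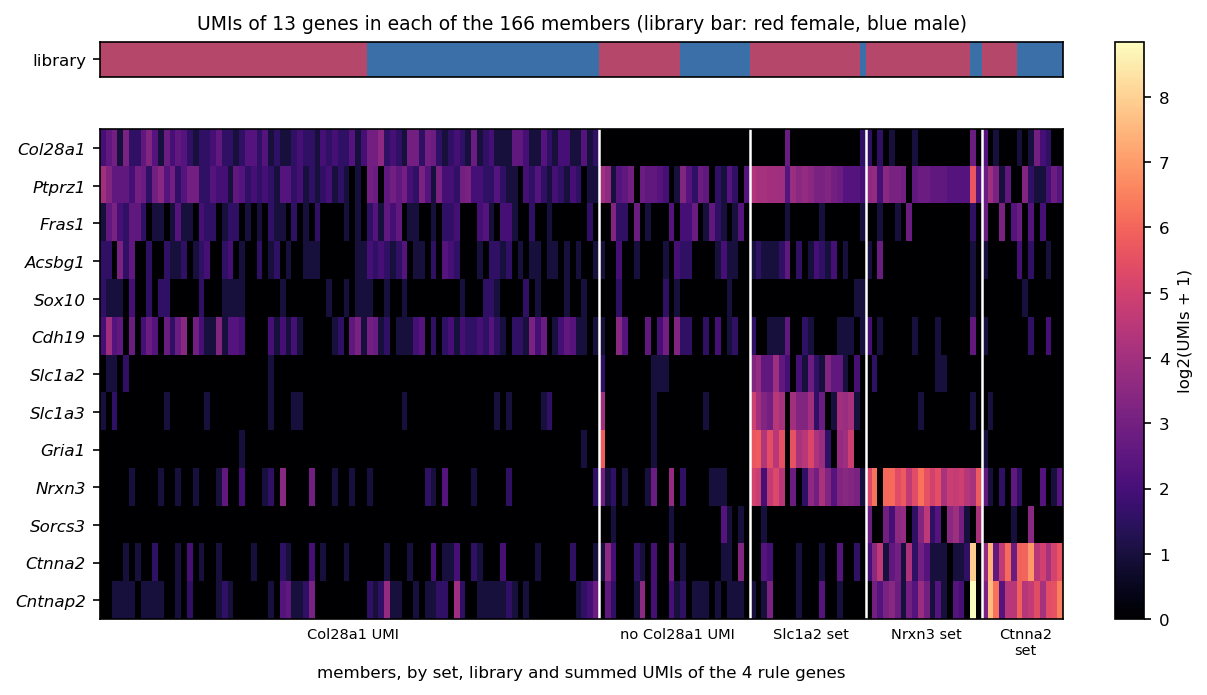
UMIs of 13 genes, as log2(UMIs + 1), in each of the 166 members, 1 column per nucleus, grouped by set, library and the sum of the 4 rule genes. Cdh19 is seen in 39 of 60 female and 40 of 52 male remaining members. The sets were defined on sums of genes that include Slc1a2, Nrxn3, Ctnna2 and Cntnap2, so a single nucleus can lack a given gene. The Slc1a2 set is also high in Gria1, which its limit did not use.

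The *Slc1a2* set was almost entirely female. Its 1 male nucleus held 0 UMIs of *Slc1a2*, *Slc1a3*, *Gria1* and *Gabrb1* and 2 of *Col28a1*, so it lacked the genes described next for the female nuclei. In its 19 female nuclei *Slc1a3*, a glutamate transporter of glia, was present at 26.3 UMIs per 10000, against 0.972 in the other female members. *Gria1*, an AMPA receptor subunit, was present at 58.4 against 2.17, and *Gabrb1*, a GABA-A receptor subunit, at 40.3 against 1.64. A single female nucleus with 2 UMIs of *Slc1a2*, below the limit of the set, held 55 of the 57 *Gria1* and 15 of the 24 *Slc1a3* UMIs of the remaining female members, among which it was kept. *Rfx4*, a transcription factor, had 20 UMIs in 11 of the nuclei and 0 in the other female members. The glial genes lay on both sides. *Sox10* had 1 UMI, *Cdh19* was at 2.10 against 6.62 per 10000 and *Slc35f1* at 0.92 against 6.80, whereas *Gpm6b*, a membrane glycoprotein gene of glia and neurons, was at 20.9 against 5.38 and *Ednrb* at 2.63 against 0.897. The summed glia list was at 25.6 per 10000, with 81.5% of it from *Gpm6b*, and at 26.5 in the remaining female members. The neuron list was at 14.7 per 10000 in the 19 nuclei and at 30.0 in the remaining female members. *Ptprz1* was present at 25.5 UMIs per 10000 in all 19 nuclei, while *Col28a1* had 6 UMIs in 1 of them and *Fras1* had 2. The nucleus with the 6 *Col28a1* UMIs had 0 UMIs of *Slc1a3* and *Gria1*. In the whole series, 43 female and 14 male nuclei had as many UMIs of the 5 astrocyte genes.

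The *Nrxn3* set differed from the remaining members in genes that its limit did not use. In its 18 female nuclei *Adarb2* had 146 UMIs against 0 in the 60 remaining female members, *Inpp4b* 179 against 4 and *Dab1*, of the reelin pathway, 131 against 7. *Sox10* had 0 UMIs in these female nuclei, and the summed glia list was at 4.57 per 10000 in them. Their neuron list summed to 27.3 per 10000 (23.5 to 31.5), against 30.0 in the remaining female members and 27.8 in female macrophage nuclei. In the *Ctnna2* set *Kcnb2*, a potassium channel gene, had 198 UMIs in 6 female nuclei against 30 in the 60 remaining female members. The neuron list of this set summed to 64.3 per 10000 in female and 71.8 in male nuclei, against 30.0 and 48.6 in the remaining members.

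One male nucleus of the *Nrxn3* set weighed on every sum of male members. It held 43636 UMIs, 18.9% of the male members' total, and the next deepest male member held 7424. The limit of the set was a count of UMIs not scaled to depth. The place of so deep a nucleus in the set therefore does not show a high level of *Nrxn3*. The nucleus had 48 *Ptprz1* UMIs, 101 of *Snap25* and 64 of *Syt1*, both genes of the synaptic vesicle machinery. The sums below are therefore given for the remaining members, except in the comparison of the male with the female library. That comparison uses all 166 nuclei unless the remaining members are named. Other sums over all 166 nuclei are named where they are used.

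In the remaining members the glial genes lay between their levels in macrophage nuclei and in *Fabp7*, *Ednrb* nuclei, a class defined below. The glia list, of 8 genes that include *Sox10*, *Cdh19* and *Erbb3*, summed to 26.5 UMIs per 10000 (24.1 to 29.2, 95% Poisson interval) in the female and 20.9 (18.7 to 23.4) in the male library. It summed to 42.1 and 35.0 in *Fabp7*, *Ednrb* nuclei, and to 2.86 and 3.44 in macrophage nuclei, which should lack these genes, at medians of 1942.5 and 2023.5 UMIs per nucleus. Macrophage nuclei were those with at least 4 summed UMIs of *Mrc1*, *Ptprc*, *Csf1r*, *Cd163*, *F13a1* and *C1qa*. They also had fewer than 4 UMIs each of the 5 *Fabp7*, *Ednrb* list genes, of the 4 rule genes and of the 4 myelin genes, so their levels of those genes were limited by selection. A UMI of *Sox10* or *Cdh19* was found in 70% of the 60 female and 76.9% of the 52 male remaining members, at medians of 2519 and 2581.5 UMIs. The same share was 91.9% and 87.0% in *Fabp7*, *Ednrb* nuclei, at medians of 2340 and 2549 UMIs, and 9.65% and 9.62% in macrophage nuclei. After each nucleus was thinned to 1000 UMIs, the shares were 58.3% and 55.8% in the remaining members, 75.4% and 66.2% in *Fabp7*, *Ednrb* nuclei and 7.02% and 3.85% in macrophage nuclei. The thinned share was 5.56% (1 of 18 nuclei) in the female *Nrxn3* set and 10.5% (2 of 19) in the female *Slc1a2* set, where the shares before thinning were 22.2% and 57.9%.

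**Figure D2:**
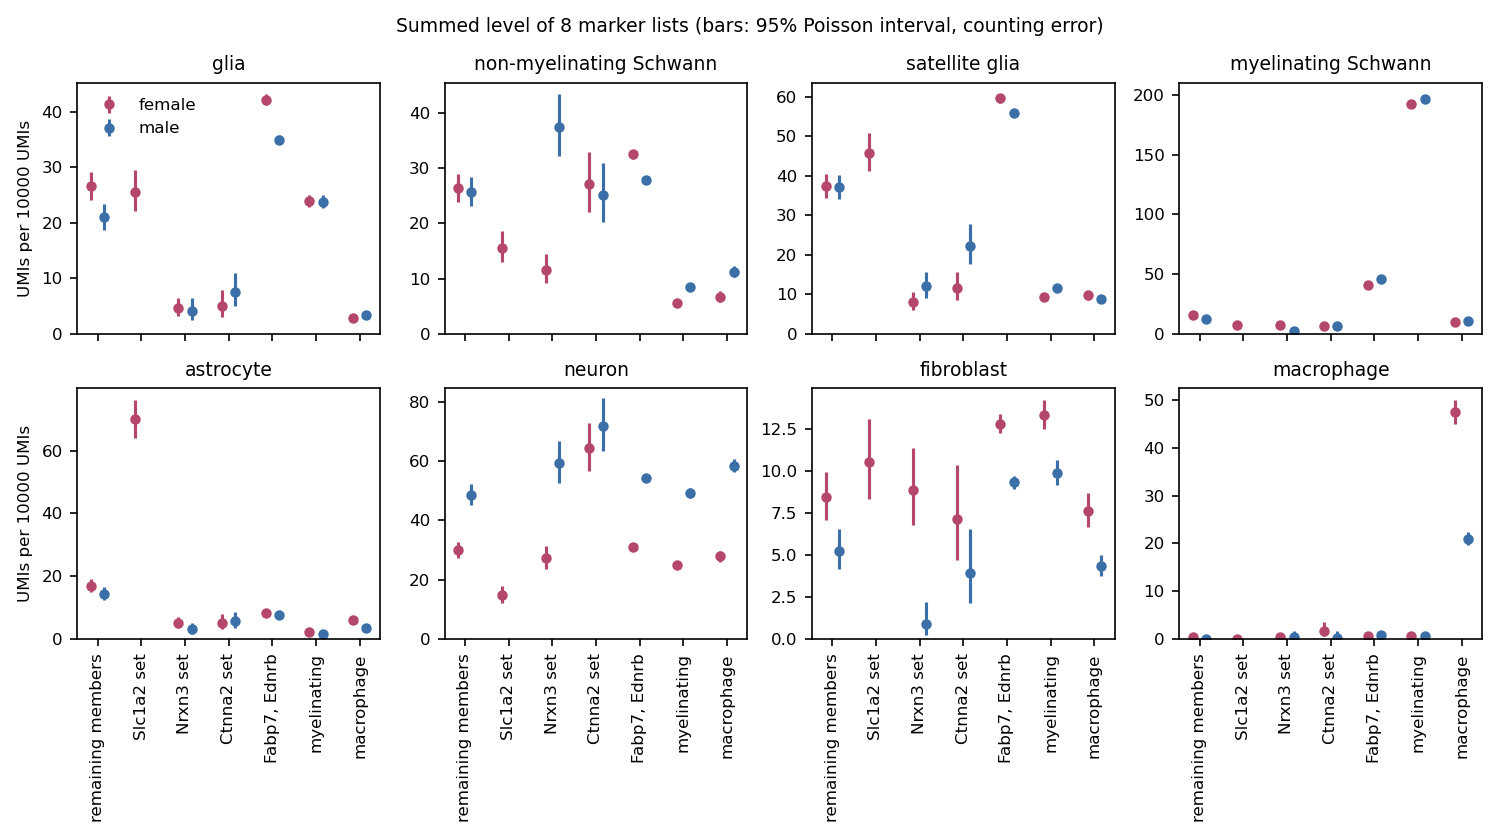
Summed UMIs per 10000 of 8 marker lists (y axis) in 7 classes of nuclei (x axis) of the female and male libraries, with 95% Poisson intervals. The 112 remaining members hold the glia, non-myelinating Schwann and satellite glia lists at levels between those of the Fabp7, Ednrb nuclei and macrophage nuclei and the myelinating list at 15.4 and 12.7. The Slc1a2 set is drawn for the female library only.

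The remaining members were compared with *Fabp7*, *Ednrb* nuclei, taken as nuclei with at least 4 UMIs of *Fabp7*, *Ednrb*, *Kcnj10*, *Lgr5* and *Slc35f1*, at least as many as of the 4 rule genes, and at least 12 per 10000, outside the limits of the 3 sets (521 female and 795 male nuclei). The myelinating nuclei had at least 4 UMIs of *Prx*, *Ncmap*, *Dusp15* and *Cldn19*, and more of these than of the 4 rule genes or of the *Fabp7*, *Ednrb* list genes. They numbered 249 and 252 outside those limits. The satellite glia list summed to 37.3 and 37.1 per 10000 in the remaining members, 59.6 and 55.9 in the *Fabp7*, *Ednrb* nuclei and 9.18 and 11.5 in myelinating nuclei, female and male. The rule itself limits *Fabp7*, *Ednrb*, *Kcnj10*, *Lgr5* and *Slc35f1* in the members. *Apoe*, of lipid transport, which the rule did not use, was at 15.6 and 17.8 in the members and at 16.1 and 18.1 in the *Fabp7*, *Ednrb* nuclei. The list of non-myelinating Schwann cells summed to 26.4 and 25.8 in the members, 32.5 and 27.8 in *Fabp7*, *Ednrb* nuclei and 5.52 and 8.44 in myelinating nuclei. *Ncam1* gave 56.7% and 48.3% of it, and *Gfap* was at 0 in both libraries.

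The myelinating Schwann list summed to 15.4 and 12.7 per 10000 in the remaining members, to 41.0 and 45.4 in the *Fabp7*, *Ednrb* nuclei and to 192.5 and 196.8 in myelinating nuclei. It was at 10.1 and 10.9 in macrophage nuclei, which should lack myelin transcripts, with intervals that overlap those of the members in the male library (11.0 to 14.7 against 9.97 to 11.9) and not in the female library (13.5 to 17.4 against 8.97 to 11.3). The myelin genes *Prx*, *Ncmap*, *Dusp15* and *Cldn19* were limited by selection in the members and in macrophage nuclei. They were not limited in *Fabp7*, *Ednrb* nuclei and were required in myelinating nuclei. Selection therefore favoured a lower myelinating list in the members than in those 2 classes. The neuron list summed to 30.0 and 48.6 in the members, 30.9 and 54.3 in *Fabp7*, *Ednrb* nuclei and 27.8 and 58.3 in macrophage nuclei. In the male library the intervals of these classes did not overlap (45.1 to 52.3, 53.4 to 55.2 and 56.1 to 60.6), with the members lowest. The astrocyte list summed to 16.9 and 14.4 in the members and 8.12 and 7.74 in *Fabp7*, *Ednrb* nuclei. *Slc4a4*, a sodium bicarbonate cotransporter, gave 93.0% and 88.7% of it, and 2 of its 9 genes were at 0 in each library. The part of these markers in the gene differences was not tested.

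Against *Fabp7*, *Ednrb* nuclei, a gene was counted as higher or lower when its log2 ratio, with 0.5 UMIs added to both sums, passed 2-fold in the same direction in both libraries. Over all 166 members, 382 of 14237 genes were higher (2.68%) and 443 were lower (3.11%). The first 15 genes by their smaller log2 ratio included *Nckap5*, *Nhsl1*, *Megf10*, *Jam2*, *Gsap*, *Myo16*, *Bcan*, *Sox5*, *Tcf7l1*, *Shank2*, *Kit*, *Adgrb3*, *Ntm* and *Acss1*, with smaller ratios of 1.53 to 2.05. *Nckap5* was at 4.57 UMIs per 10000 in female members against 0.836, and at 2.20 in male members against 0.536. The 10 lowest were *Trpm8*, the cold-sensing channel of sensory neurons, *Cntnap5b*, *Ndst4*, *Dlgap2*, *Kcnn3*, *Ccl27a*, *Egfem1*, *Slc38a11*, *Cntnap5c* and *Cntn5*. *Cntn5*, a contactin of neurons, was at 1.57 and 2.51 in the members against 15.9 and 18.4, and at 4.17 and 5.70 in the *Fabp7*, *Ednrb* nuclei with at least 12 UMIs of their 5 genes per 10000. The *Fabp7*, *Ednrb* nuclei of this first comparison (777 female and 1272 male) included nuclei of up to 124136 UMIs, whereas the deepest member held 43636. Against only those with at least 12 UMIs of their 5 genes per 10000, 114 genes were higher (0.949%) and 258 were lower (2.15%). Of the genes just named as higher, *Nckap5* (1.56 and 1.07), *Nhsl1* (1.99 and 1.09) and *Ntm* (1.98 and 1.03) then stayed past 2-fold in both libraries and the others did not, with *Megf10* at 0.93 and 0.62 and *Sox5* at 1.16 and 0.64 on the log2 scale. The *Slc1a2* set held *Ntm* at 31.0 UMIs per 10000 in females. Its female ratio was 0.57 for remaining members with a *Col28a1* UMI and 0.08 for those without, and the male ratios were 1.36 and 0.60. Of the genes named as lower, *Egfem1* was under 2-fold in the female library (-0.87), and *Cntn5* was at -1.40 and -1.17. Among genes with at least 5 expected UMIs in the smaller class, 91 were higher (1.19%) and 180 were lower (2.34%).

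For the remaining members, where at least 5 UMIs of a gene were expected in the smaller class, 17 of 5639 genes were higher (0.301%) and 79 were lower (1.4%). The counts moved with the minimum and the nuclei compared. With at least 20 UMIs over both classes instead, 87 of 10320 genes were higher (0.843%) and 212 lower (2.05%), and with the *Fabp7*, *Ednrb* nuclei of any density as well, 839 of 14158 were higher (5.93%) and 786 lower (5.55%). The median log2 ratio of the 5639 genes was -0.04 in each library.

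Among the genes that were higher, *Ctnnd2*, encoding delta-catenin, was at 24.1 UMIs per 10000 (21.8 to 26.6) in the female members against 11.9, and at 26.2 (23.6 to 28.9) in the male members against 10.3. The log2 ratios were 1.02 and 1.35. Its UMIs were spread over 49 female and 47 male members, with at most 25 in 1 nucleus. *Ntm*, encoding the adhesion protein neurotrimin, was at 5.75 against 2.27 and 2.92 against 1.45. Its female call depended on the nuclei compared. With nuclei inside the limits of the 3 sets kept, the *Fabp7*, *Ednrb* class held *Ntm* at 4.20 in females and 1.26 in males. Against that class, the female log2 ratio was 0.57 for members with a *Col28a1* UMI and 0.08 for those without, and the male ratios were 1.36 and 0.60. *Kit*, the stem cell factor receptor, was at 2.47 against 1.13 and 2.24 against 1.09, and was seen in 20 female and 23 male members. *Dcc*, a netrin receptor, *Dclk1*, a doublecortin-like kinase, *Kctd1*, *Nhsl1* and *Folh1*, a carboxypeptidase, were higher by log2 ratios of 1.05 to 1.5 in females and 1.14 to 1.40 in males. *Runx2*, a transcription factor known from bone, had the highest ratios, 1.72 and 1.5, but 42 of its 52 female UMIs and 20 of its 35 male UMIs came from a single nucleus in each library. Without these nuclei and the 1 rich in *Gria1*, its ratios were -0.68 and 0.33, and 20 of 5474 genes were higher (0.365%) and 71 lower (1.3%). The other 5 genes named by the same ranking (*Npas3*, *Slc4a4*, *Cdk6*, *Mtcl1* and *Ston2*) stayed under 2-fold in 1 library, with smaller ratios of 0.91 to 0.97.

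Of the 10 genes named as lower, *Scn7a* had the most UMIs in the members of each library. The gene, which encodes the sodium channel Nax and marks non-myelinating Schwann cells, was at 1.61 UMIs per 10000 (1.05 to 2.36) in the female members against 7.78, and at 1.56 (0.991 to 2.35) in the male members against 6.73. Its log2 ratios were -2.25 and -2.07, and macrophage nuclei held it at 0.864 and 2.6. In both libraries the interval of the members overlapped that of macrophage nuclei (0.564 to 1.27 in females and 2.15 to 3.12 in males). *Rasgef1c*, of a family of guanine nucleotide exchange factors, had 1 UMI in the members of each library against 212 and 225, with log2 ratios of -3.77 (-9.67 to -1.86) and -3.12 (-9.01 to -1.21). *Foxd3*, a neural crest transcription factor, had 1 UMI in each library against 69 and 122. *Jun*, an injury-responsive transcription factor of Schwann cells, had 1 and 2 UMIs against 67 and 153. *Gldn*, encoding gliomedin, which clusters sodium channels at nodes, had 2 and 1 UMIs against 90 and 130. *Fbxo31*, *Filip1*, *Epha6*, *Col3a1* and *Arhgap15* were also lower, with 1 to 8 UMIs in the members of a library.

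**Figure D3:**
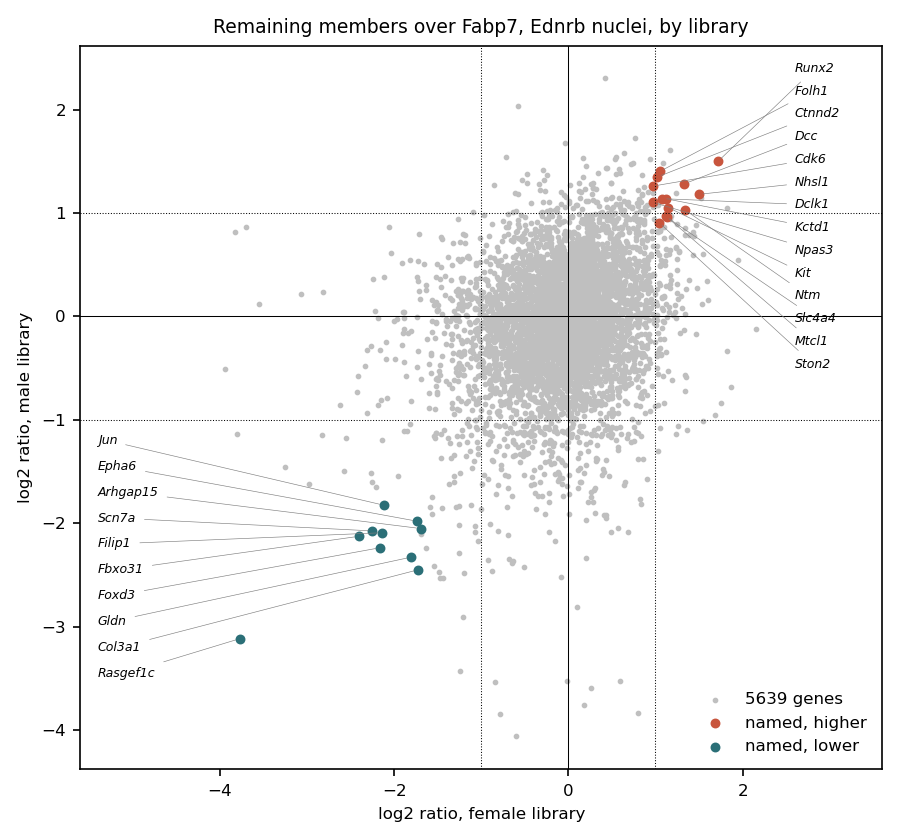
Log2 ratio of remaining members over Fabp7, Ednrb nuclei in the female (x axis) and male (y axis) library for 5639 genes, with dotted lines at 2-fold and 24 named genes in colour. The cloud is centred near 0, with Runx2, which rests on 1 nucleus in each library, Dcc and Nhsl1 at the upper right and Rasgef1c at -3.77 and -3.12 at the lower left.

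The gene lists were tallied in the same comparison, in which 0.301% of all genes were higher and 1.4% were lower. The rule limited 4 myelin genes in the members and not in the *Fabp7*, *Ednrb* nuclei, which favours lower myelin genes in the members. Of the 7 measured genes of the myelinating Schwann list, 4 were lower, *Pmp22*, *Pllp* and *Fa2h* among them, and 0 were higher, against 1.4% of all genes lower. *Pmp22*, which encodes a protein of compact myelin, was at 3.03 (2.24 to 4.01) and 4.08 (3.11 to 5.25) UMIs per 10000 against 7.83 and 9.58, with log2 ratios of -1.36 and -1.22. Its intervals in the members overlapped those of macrophage nuclei in both libraries (2.17 to 3.38 and 3.04 to 4.17). Of the 20 potassium channel genes measured, 3 were lower, with *Kcna1*, a channel of the juxtaparanode, at 0.866 and 1.495 against 5.35 and 4.30. Of the 21 axon guidance genes, *Dcc* was higher and *Slit2*, a ligand of Robo receptors, and *Nrp1*, a semaphorin receptor, were lower. *Ntrk3*, the neurotrophin-3 receptor, was the 1 gene of 9 in the neurotrophin and GDNF list that was lower, at 2.23 and 0.544 against 6.24 and 3.34.

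The ligands and partners of PTPRZ1 were measured beside the receptor, in the comparison where 0.301% of all genes were higher. *Bcan*, which encodes the proteoglycan brevican, was the 1 of 7 measured genes that was higher, with 19 UMIs in each library, at 1.17 against 0.567 per 10000 in females and 1.29 against 0.471 in males. *Ptn*, encoding the ligand pleiotrophin, was at 7.73 and 6.59 in the members and 4.98 and 5.37 in the *Fabp7*, *Ednrb* nuclei, under 2-fold. *Cntn1*, encoding contactin 1, was at 2.47 and 1.90 against 1.69 and 1.70. The ligands *Mdk* (midkine) and *Tnr* (tenascin R) had 0 to 3 UMIs in the members of a library.

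For the pathways of the other rule genes, few genes passed 2-fold, where 0.301% of all genes were higher and 1.4% were lower. None of the 10 measured genes of the Fraser complex and basement membrane list did, and *Frem2*, a partner of FRAS1, had 13 and 5 UMIs in the members. None of 13 fatty acid and 14 cholesterol genes did, with list medians of 0.01 and 0.35 in females and 0.02 and 0.07 in males on the log2 scale. *Scd2*, a fatty acid desaturase, was at 8.53 and 9.38 against 9.65 and 12.5. Of 15 collagen genes, 1 was lower, *Col3a1*, and 0 of 4 laminin genes passed. The Wnt list had 0 of 8 genes past 2-fold, with medians of 0.51 and 0.47. *Lgr4*, an R-spondin receptor, was at 8.10 and 6.05 against 4.44 and 3.46. *Jag1*, a Notch ligand, was the 1 of 9 Notch and Hedgehog genes that was higher, at 1.36 and 1.22 against 0.692 and 0.577. The female ratio lay at the limit, with 22 UMIs in the members, and reached 2-fold through the 0.5 UMIs added to both sums. Of 20 transcription factors of the Schwann lineage, *Runx2* was higher, through the 2 nuclei named above, and *Foxd3* and *Jun* were lower. Of the 79 cytoplasmic ribosomal protein genes, 0 passed 2-fold, with medians of -0.34 and -0.37.

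The same comparison was made with myelinating nuclei. Over all 166 members, 273 of 8696 genes were higher (3.14%) and 348 were lower (4%), led by *Nckap5*, *Grid1*, *Gsap*, *Slc43a3*, *Cdh20*, *Adgrb3*, *Sorcs3*, *Bcan*, *Shank2* and *Morrbid* on the higher side and by *Sptbn5*, *Ankfn1*, *Gldn*, *Ddn*, *Sec14l5*, *Kif19a*, *Lctl*, *Cldn14*, *Plk5* and *Fam178b* on the lower. *Sorcs3* helped to define the *Nrxn3* set, which held 111 of its female UMIs, and the remaining members had 2 female and 6 male UMIs of it. Of 5477 genes, 253 were higher (4.62%) and 363 were lower (6.63%) in the remaining members. All 9 measured genes of the myelinating Schwann list were lower, which the rule favoured by its limit on 4 myelin genes. *Pmp22* had log2 ratios of -3.63 and -3.34. *Egr2*, the transcription factor that drives myelination, had 0 UMIs in the members of both libraries against 52 and 52 and against the floor of 3 UMIs per library its log2 ratio was -2.0 or lower in females and -1.87 or lower in males. *Gldn*, *Sptbn5*, *Sec14l5*, *Plk5*, *Lctl*, *Adcy8*, *Fgf7*, *Filip1* and *Ankfn1* were the other genes named as lower, with 0 to 11 UMIs in the members of a library.

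**Figure D4:**
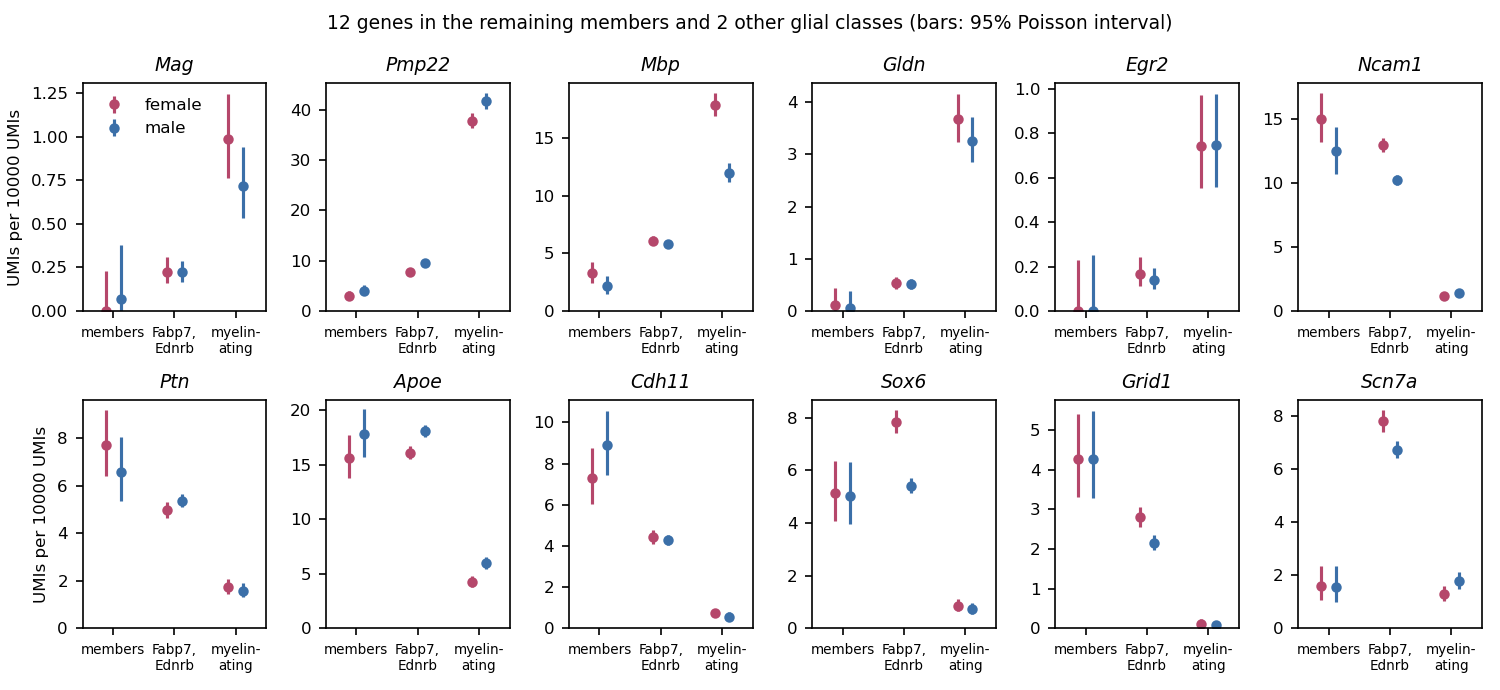
UMIs per 10000 of 12 genes (y axis) in the 112 remaining members, the Fabp7, Ednrb nuclei and the myelinating nuclei of each library, with 95% Poisson intervals. Myelin genes such as Mag and Pmp22 are lowest in the members, Ncam1, Ptn, Apoe and Cdh11 are near or above the Fabp7, Ednrb nuclei, Grid1 is highest in the members, and Scn7a is as low in the members as in myelinating nuclei.

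Of the 19 measured genes of the adhesion list, 7 were higher than in myelinating nuclei and 4 were lower (*Cadm3*, *Cadm4*, *Gldn* and *Nfasc*). For this and the lists that follow, 4.62% of all 5477 genes were higher and 6.63% were lower. *Ncam1* was at 14.96 and 12.4 UMIs per 10000 against 1.199 and 1.45, with log2 ratios of 3.64 and 3.10. *Cdh11*, a cadherin, was at 7.30 and 8.90 against 0.728 and 0.573. *Adgrb3*, an adhesion G protein-coupled receptor, was at 43.3 and 43.7 against 1.998 and 1.003, and *Csmd1*, a complement-regulating membrane protein, at 105 and 83.9 against 4.08 and 4.27. Of 10 glutamate receptor genes measured, 5 were higher, *Gria4*, *Grid1*, *Grik2* and *Grik3* among them, and 0 were lower. *Grid1*, the delta-1 receptor, was at 4.27 and 4.28 against 0.114 and 0.0859. Of 8 Notch and Hedgehog genes, 3 were higher and 1 was lower. *Notch1*, *Jag1* and *Hey2*, a target of Notch signalling, were higher by 2.33 to 3.37 on the log2 scale, and *Dhh*, the hedgehog ligand of Schwann cells, was lower, at -1.77 and -1.70. *Notch2* was at -1.16 and -0.80 and did not pass in both libraries.

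The neurotrophic genes fell on both sides. *Gfra1*, the GDNF receptor, was at 0.68 and 0.951 UMIs per 10000 in the members against 20.2 and 15.4 in myelinating nuclei, with log2 ratios of -4.83 and -3.97. *Cntf*, the ciliary neurotrophic factor, was lower as well, and *Ntrk2*, the BDNF receptor, was higher, at 5.50 and 5.37 against 1.13 and 1.39. *Ptn*, the ligand of PTPRZ1, was higher at 2.16 and 2.05 on the log2 scale, whereas *Nfasc*, encoding neurofascin, was lower. Of the 9 basement membrane genes measured, 4 were lower (*Utrn*, *Dag1*, *Agrn* and *Hspg2*), where 6.63% of all genes were lower and 4.62% higher. *Sox5*, *Sox6*, *Zeb1*, *Nr2f1* and *Runx2* were the 5 of 16 lineage transcription factors that were higher, *Runx2* with most of its UMIs in 1 nucleus of each library, and 0 were lower. *Shank2*, a scaffold of the postsynaptic density, *Gsap*, *Nckap5*, *Ctnnd2*, *Morrbid*, *Tspan18* and *Mmd2* completed the genes named as higher.

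The rule lets a nucleus in without *Col28a1*, so the remaining members were also divided by it. A *Col28a1* UMI was present in 46 female and 40 male nuclei and absent from 14 and 12. A UMI of *Sox10* or *Cdh19* was found in 76.1% and 85% of the nuclei with *Col28a1* and in 50% and 50% of those without it. Of 1248 genes, 37 were higher (2.96%) and 20 were lower (1.6%) in the nuclei with *Col28a1*. *Prdm16*, a transcription factor, had 52 female and 28 male UMIs where *Col28a1* was present, against 1 and 1 where it was not. *Abca8a*, a lipid transporter, was at 14.1 and 13.2 UMIs per 10000 against 4.82 and 4.54, and *Aspa*, encoding aspartoacylase, at 5.72 and 4.90 against 1.27 and 1.05. *Itgav*, *Cttnbp2nl*, *Kctd1*, *Sash1*, *Pde7b*, *Spata13* and *Adcy2* were the other genes named as higher. *Kcnip4*, a potassium channel partner, *Map2*, a microtubule protein of neurons, and *Runx2* were lower in the nuclei with *Col28a1*. The neuron list was at 27.8 (24.9 to 30.9) per 10000 against 36.8 (31.0 to 43.3) in females and at 46.6 (42.8 to 50.6) against 56.9 (48.5 to 66.3) in males, with intervals that overlap in the males only, and its part in these differences was not tested. The satellite glia list, of whose 10 genes the rule limits 5, was at 42.6 (39.0 to 46.4) against 21.1 (16.8 to 26.1) in females. In males it was at 37.9 (34.5 to 41.6) against 33.8 (27.4 to 41.3), with intervals that overlap. *Kcnip4* was at 8.09 and 3.88 against 23.8 and 13.3. For *Runx2* the difference rests on 1 nucleus in each library. In females 42 of the 44 UMIs in nuclei without *Col28a1* came from that nucleus, in males 20 of 24, and nuclei with *Col28a1* had 8 and 11. The other genes named by the ranking (among them *Magi2*, *Meg3*, *Map4*, *Cox6c*, *Actg1* and *Pafah1b1*) were under 2-fold in at least 1 library.

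A profile made in 1 library was then applied to the other, with the genes of the rule left out. Of the remaining members, 32 of 52 male nuclei (61.5%, 47.0 to 74.7%) and 45 of 60 female nuclei (75.0%, 62.1 to 85.3%) were closest to the member profile of the other library. Of the 40 male nuclei with *Col28a1*, 28 (70.0%, 53.5 to 83.4%) were closest to the profile of the female remaining members, 12 to that of the *Fabp7*, *Ednrb* nuclei and 0 to those of myelinating or macrophage nuclei. Of the 46 female nuclei with *Col28a1*, 38 (82.6%, 68.6 to 92.2%) were closest to the profile of the male remaining members and 8 to the *Fabp7*, *Ednrb* profile. Without *Col28a1*, 4 of 12 male and 7 of 14 female nuclei were closest to the member profile. *Fabp7*, *Ednrb* nuclei were closest to the member profile in 21.4% (18.6 to 24.4%) of male and 33.8% (29.7 to 38.0%) of female nuclei, and myelinating nuclei in 0.794% and 0.402%. All 6 female nuclei of the *Ctnna2* set and 11 of the 18 of the *Nrxn3* set were closest to the macrophage profile. The 4 profiles offered were of member, *Fabp7*, *Ednrb*, myelinating and macrophage nuclei, and none was of neurons. The macrophage list summed to 1.58 and 0.44 per 10000 in these 2 female sets, against 47.5 in female macrophage nuclei. By contrast, 5 of the 8 male nuclei of the *Ctnna2* set and 17 of the 19 female nuclei of the *Slc1a2* set were closest to the member profile.

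Comparison of the libraries within the class is a comparison of 1 pool with 1 pool. It covers all 166 members unless the remaining members are named. The X-linked transcripts *Xist* and *Tsix* had 334 and 119 UMIs in the female members and 0 in the male members. Those genes overlap on opposite strands, and no source used here states whether counting was by strand. The Y-linked genes *Uty*, *Eif2s3y*, *Ddx3y* and *Kdm5d* had 33, 18, 12 and 7 UMIs in the male members and 0 in the female members. Over all 166 members, 401 of 5853 genes were higher (6.85%) and 535 were lower (9.14%) in male than in female members by 2-fold. In the larger class of *Fabp7*, *Ednrb* nuclei, of any density of those genes, the shares were 2.16% and 3.57% of 16744 genes.

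Most of the leading genes came from few nuclei. *Gria1* had 503 UMIs in female and 1 in male members, with 445 of them in the *Slc1a2* set, and *Gabrb1* had 351 and 1, with 307 in that set. *Slc1a2* and *Mybpc1* had 103 and 81 female UMIs, of which 89 and 71 lay in the set. Of the genes higher in males, *Rgs6* had 260 of its 263 UMIs in the nucleus of 43636 UMIs, *Alk*, a receptor tyrosine kinase, 76 of 84 and *Schip1* 519 of 628. *Dnah3*, *Unc5d*, *Slc44a5* and *Lingo2* likewise had 29 of 35, 50 of 73, 28 of 29 and 196 of 307 there. The muscle genes *Myh1*, *Tnnc2* and *Tnni2* had 51 of 53, 38 of 39 and 35 of 36 female UMIs in single nuclei, and *Nxph1* had 52 of 53. *Smpd3* had 24 UMIs in males against 4, and *Brinp3* 67 in females against 0, of which 32 lay in the *Slc1a2* set.

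Genes spread over nuclei differed in other classes too. *Slc6a2*, the noradrenaline transporter, had 29 UMIs over 23 male members and 3 in female members, and was at 0.97 per 10000 in male and 0.07 in female macrophage nuclei. *Dbh*, dopamine beta-hydroxylase, had 20 UMIs against 2, and was at 0.72 and 0.07 in macrophage nuclei. *Prl*, the pituitary hormone prolactin, had 54 UMIs over 36 female members and 0 in male members, and was at 1.40 and 0.02 in female and male macrophage nuclei. These 3 genes are known from other cell types and differed in macrophage nuclei in the same direction. In the 112 remaining members, 227 of 3587 genes were higher (6.33%) and 223 were lower (6.22%) in males, and *Slc6a2* led the higher genes with 24 UMIs against 3.

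**Figure D5:**
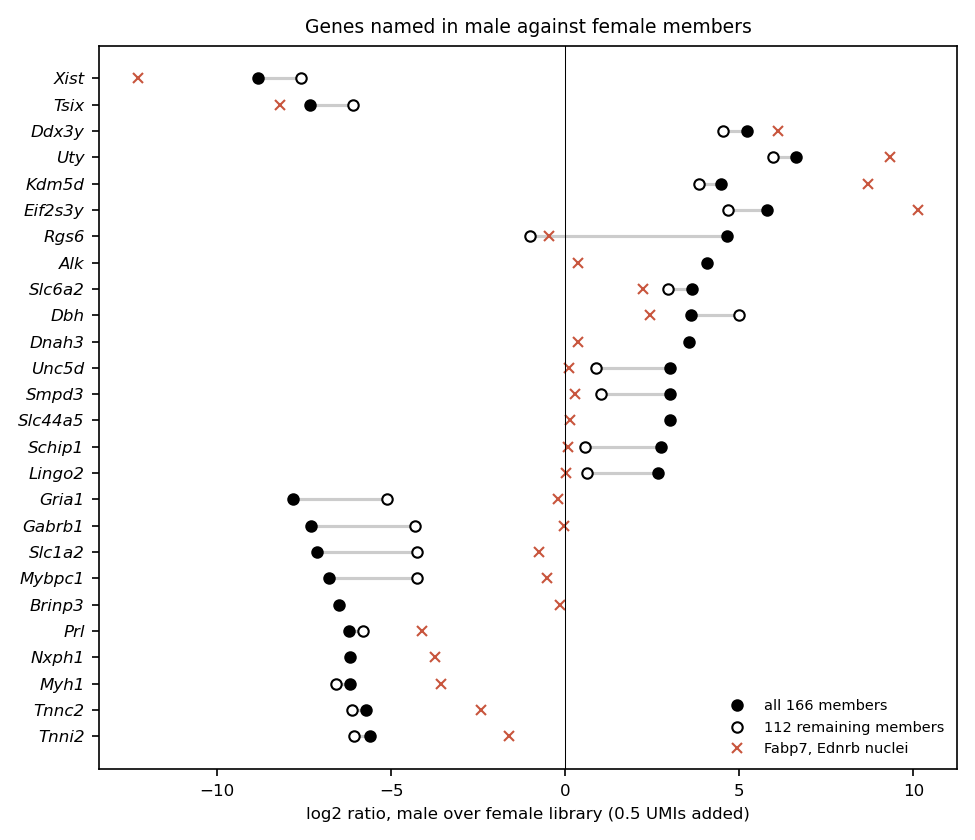
Log2 ratio of the male over the female library, with 0.5 UMIs added (x axis), for 26 genes in all 166 members, in the 112 remaining members where at least 1 library had more than 3 UMIs, and in Fabp7, Ednrb nuclei. Rgs6 goes from 4.66 to -1.0 and Schip1 from 2.74 to 0.57 once the 3 sets are left out, Gria1 and Gabrb1 lie at -0.21 and -0.03 in the Fabp7, Ednrb nuclei, and the sex-linked genes and Prl keep their direction in each class.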

How the data were processed

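Nuclei of pooled ganglia were profiled with the Chromium 3' v3.1 method. Per the submitters' processing notes and the study's methods, the authors aligned reads to mm10 plus a transgene sequence with Cell Ranger 7.1.0, introns included, aggregated both libraries with a step that equalises depth, and removed debris, low-quality nuclei and possible doublets. The deposited values are UMI counts of 32286 genes in 8714 nuclei. No doublet caller was run here. Barcodes were assigned to the female or male library by their number, matched to the stated nucleus counts and checked with sex-linked genes.

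Counts were summed per class and library with Python 3.11.15, numpy 2.4.6, scipy 1.17.1 and pandas 2.3.3. Levels are UMIs per 10000 UMIs with exact Poisson 95% intervals, and shares have Clopper-Pearson intervals. Log2 ratios have 0.5 UMIs added. A gene counted as higher or lower at 2-fold in the same direction in both libraries, with at least 20 UMIs over both classes in each library, or at least 5 expected UMIs in the smaller class. No tests were made, and with 1 library per sex none of sex was possible. Named genes were the 15 highest and 10 lowest by the smaller of both libraries' ratios against *Fabp7*, *Ednrb* nuclei, the 10 highest and 10 lowest in the other comparisons, each with at least 20 UMIs in the higher class of each library, the sex-linked genes and members of 38 gene lists. Members and lists were chosen with earlier results of these data known. The 3 sets, and the comparisons without them, were chosen after seeing the data. Some genes that the naming rule picks are not reported here.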

Additional observations from a re-analysis of the deposited data

Results flagged for a closer look

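For 3 genes all 166 members together differed from *Fabp7*, *Ednrb* nuclei in opposite directions in the female and male libraries, and the difference between libraries was not tested. *Gabrb1* had log2 ratios of 4.03 in females and -3.24 in males, and *Gria1* had 4.41 and -3.20. The male ratios rest on 1 UMI of each gene, below the floor of 3 UMIs. *Grm3*, a metabotropic glutamate receptor gene, had 1.09 and -1.09, from 44 UMIs in female and 8 in male members. Of the female UMIs of *Gabrb1* and *Gria1*, 307 of 351 and 445 of 503 lay in the *Slc1a2* set. The remaining members without the nucleus rich in *Gria1* had 2 female UMIs and 1 male UMI of *Gria1*.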

How the results depend on the processing

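Each sex has 1 library, so no test of sex was possible. Classes of nuclei were compared within each library, and no paired test of them was made. Of the shares of nuclei and counts of genes, 48 values stayed within their limits under the alternatives and 30 moved, and of the list medians and single-gene ratios 467 stayed and 73 moved. Of the 50 ratios of named genes against *Fabp7*, *Ednrb* nuclei, 25 moved with the same weight for each nucleus and 17 without the 3 sets. Of the named male-to-female ratios with more than 3 UMIs left in a library, that of *Rgs6* changed sign, from 4.66 to -1.0 on the log2 scale, when the 3 sets were left out. The share of female and male nuclei was 1.98% and 0.914% with at least 6 UMIs of the 4 genes, 4.06% and 2.34% with no limit per 10000, and 1.71% and 0.528% without nuclei of at least 4 *Fabp7*, *Ednrb* list UMIs. The female share was 3.56% among nuclei of over 2000 UMIs, and 2.22% without the *Slc1a2* set and 1.58% without all 3 sets, both chosen after seeing the data. A minimum of 50 UMIs left 200 genes higher than in *Fabp7*, *Ednrb* nuclei, 153 higher and 226 lower than in myelinating nuclei, and 153 higher and 215 lower in males, since fewer genes were measured. A minimum of 10 gave 616 higher than in *Fabp7*, *Ednrb* nuclei and 849 higher and 1005 lower in males. With 2 UMIs added, 1349 genes were higher and 108 lower than in *Fabp7*, *Ednrb* nuclei. The same UMIs were added to both sums, so they weigh more in the smaller class and raise the ratios of genes with few UMIs. The members held 343738 UMIs against 6139485 in females and 231357 against 11193372 in males. With the same weight for each nucleus, 417 genes were higher than in myelinating nuclei. Of the alternatives chosen after seeing the data, leaving out the 3 sets, with the genes that define them counted, gave 840 higher and 790 lower than in *Fabp7*, *Ednrb* nuclei and 227 higher and 223 lower in males, at least 5 expected UMIs gave 91 and 180, and *Fabp7*, *Ednrb* nuclei of at least 12 UMIs per 10000 gave 114 and 258. For the remaining members a minimum of 20 UMIs gave 87 and 212, and leaving out 3 nuclei rich in *Gria1* or *Runx2* gave 20 and 71.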
